A study of Drosophila melanogaster with 12 samples.

Results

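In the third instar larvae of *Drosophila melanogaster*, 24 known transcripts were at or near 0 in every control library and present in every *ISWI* mutant library, and 19 known transcripts showed the reverse. Known transcripts are those that carry a FlyBase transcript identifier in the deposited table, which lists 31271 of them among 41081 transcripts and insertions. A transcript was placed in the on set when its normalized count, the read count divided by the size factor of its library, was at most 3 in all 6 control libraries and at least 10 in all 6 mutant libraries. The off set was chosen by the reverse rule. The on set was 0.0767% of the known transcripts and the off set 0.0608%. Both sets were therefore chosen by the contrast between mutants and controls, and that contrast is described here without a test.

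RNA depleted of ribosomal RNA came from whole larvae of 4 groups with 3 libraries each. The control females and control males had the genotype +/+, and the mutant females and mutant males were Iswi1/Iswi2. Mutant larvae carried 1 of these point mutations of *ISWI* on each copy of chromosome 2, and were picked for the absence of the GFP of the balancer from crosses of the stocks yw; ISWI1/CyO·GFP and yw; ISWI2/CyO·GFP. The stock background changed together with the genotype, so a transcript that differs because of the background and one that differs because of the mutation cannot be told apart. All stocks were kept at the same temperature, and each library was a pool of larvae, so the spread between replicates is a spread between pools. The reads assigned to the rows of the deposited table came to between 89290368 and 119202607 per library. A single read was worth 1 divided by a size factor of 0.798 to 1.59. Normalized counts are not divided by transcript length, so levels are compared between libraries and, between transcripts, only as amounts of reads.

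ISWI is the ATPase that drives the imitation switch family of nucleosome remodelers, among them NURF, ACF and CHRAC, which slide and space nucleosomes along the DNA. In *Drosophila* larvae that lack its function the male X chromosome of the salivary gland loses its compact banded form, and ISWI is known to act both in activation and in repression of transcription. A transcript identifier names 1 isoform, not a gene. Many fly genes make several isoforms that differ in promoter, exon choice or end, and StringTie divides the reads of overlapping isoforms among them, so a transcript can be at 0 while another isoform of its gene holds many reads.

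The tables used here pair none of the 43 identifiers with a gene. The gene, class, chromosome and sequence of each transcript, the other isoforms of its gene, and the levels of *ISWI* itself, of the stock markers, of the genes that mark sex and of cell type markers were not analysed here. Transcripts are therefore ranked within their set by mean normalized count in the genotype in which they were present, and called by that rank. In RNA from whole larvae, fewer cells that express a transcript and less RNA of it per cell cannot be told apart.

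The on set ranged widely in amount. Its mean normalized count over the 6 mutant libraries ran from 19.1 to 5457, with a median of 157 over the 24 transcripts. A mean of at least 100 was found for 18 of them and a mean of at least 1000 for 3, while 6 were under 50. In the control libraries 14 of the 24 had no read at all, 10 had a read in at least 1 library and 3 had a read in each of the 6. The whole set drew 43 reads from the 6 control libraries together and 73521 reads from the 6 mutant libraries, and no member had more than 3 reads in any control library.

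**Figure D1:**
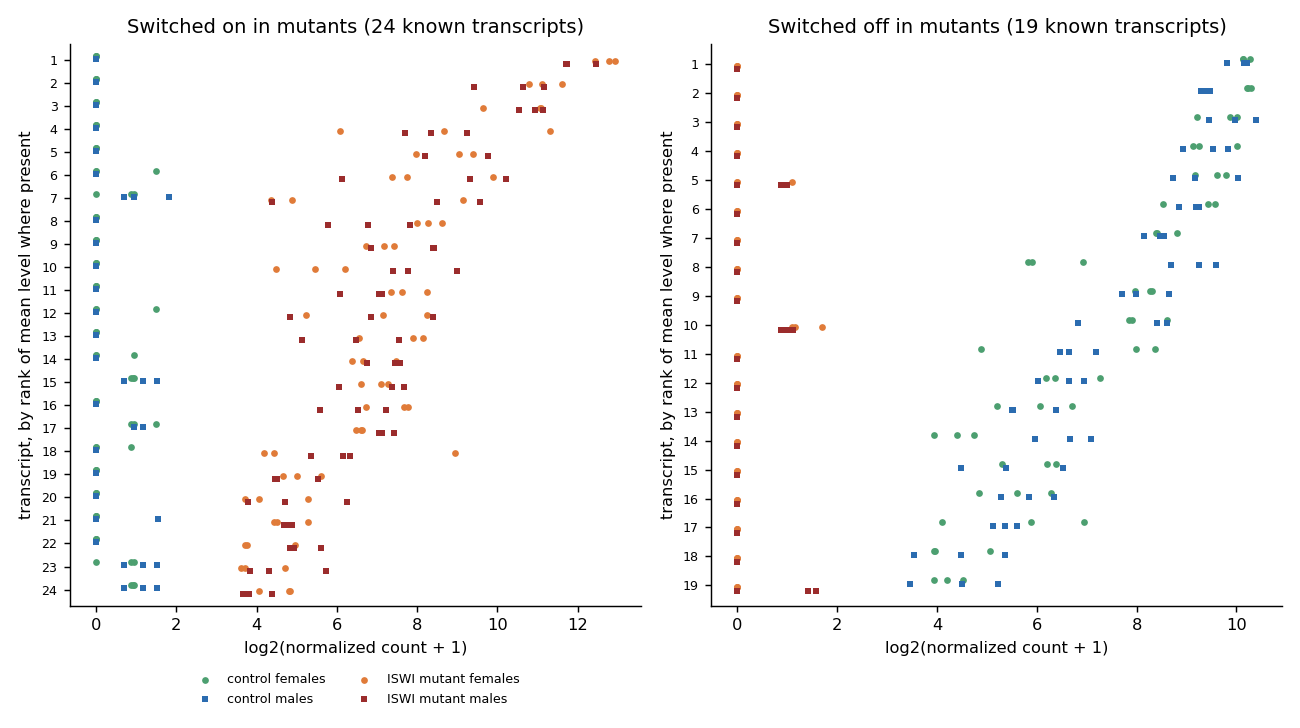
Each row is a known transcript, ranked by its mean level where present, and each point is a library, with log2(normalized count + 1) on the horizontal axis. In the on set (left, 24 transcripts) the control points lie at 0 or at the level of at most 3 reads and the mutant points spread between 11.2 and 7852 normalized counts. In the off set (right, 19 transcripts) the mutant points lie at or near 0 and the control points between 10.1 and 1353.

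FBtr0087537 was the most abundant on transcript. Its normalized counts were 7852, 5506 and 7068 in the mutant females and 3403, 3335 and 5580.2 in the mutant males, against 0 in each of the 6 control libraries. No mutant library was thus under 3335 normalized counts, and the lowest female library lay just under the highest male library. With 3 assigned reads in each control library taken as the limit of detection, its mean of 5457 ± 1848 (SD, n = 6) was at least 2007-fold higher than in controls. This fold and those given below as at least a value hold only for that chosen limit. They also depend on how reads were divided among isoforms, which was not examined. This transcript alone made 41.4% of the summed mean of the on set.

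FBtr0073565 had 1761, 3131 and 2219 normalized counts in the mutant females and 2309.6, 1597 and 682 in the mutant males. It had no read in any control library, and its mean was at least 717-fold higher in the mutants. The libraries of both sexes overlapped, with mutant male 3 the lowest of the 6. The transcript of rank 3 was nearly as abundant, with 2189, 2134 and 801 in the mutant females and 1482, 1978 and 2233 in the mutant males, and was also without a read in the controls, which gives at least 663-fold. Mutant female 3 was its lowest library and mutant male 3 its highest, the opposite of FBtr0073565 for that male library. The leading 3 transcripts together made 69.8% of the summed mean of the set.

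Below these, the fourth to the eighteenth transcripts had means between 119 and 692. Several of them differed strongly between larval pools of the same genotype. The highest mutant library was a median of 4.58 times the lowest over the 24 transcripts, with a range from 1.85 to 38.7 times, and this ratio was above 10 for 6 transcripts and above 20 for 4. The transcript of rank 4 had 405, 66.5 and 2551 normalized counts in the mutant females and 600.4, 323 and 205 in the mutant males, so that a single female library held most of its amount. A similar pattern was found at rank 18, with 489 in mutant female 3 and between 17.2 and 79.4 in the other 5 mutant libraries. FBtr0100038, of rank 7 and singled out after its values were seen because its range was the widest, had 19.4, 28.7 and 564 in the mutant females and 753, 357 and 20.03 in the mutant males. Each sex thus held at least 1 library at 357 or more and at least 1 library at 28.7 or less.

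The high pools were not the same for all of these transcripts. The transcript of rank 6 was highest in mutant male 1 at 1197 and mutant female 2 at 949, and lowest in mutant male 3 at 68.4. Rank 12 was highest in mutant male 3 at 336 and mutant female 3 at 302, and lowest in mutant male 1 at 27.6. Counted over the 24 transcripts, each mutant library was the highest for between 2 and 5 of them and the lowest for between 2 and 5. No mutant library was thus high or low for most of the set.

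Few on transcripts were steady between the mutant libraries: the ratio of highest to lowest was above 2 for 22 of the 24. At rank 17, the transcript had 98.4, 96.4 and 87.5 normalized counts in the mutant females and 131, 139 and 169.7 in the mutant males. Each male library was above each female library, and its mean was 120.3 ± 31.7 (SD, n = 6). It was also among the transcripts with a low signal in each control library, where it had 1, 2 and 1 reads in females and 1, 2 and 1 reads in males. Its reads per unit of size factor were 105 times higher in the mutants than in the controls (exact binomial 95% interval 52.9 to 244). This interval pools the assigned reads of the libraries and treats them as independent counts. It covers neither the spread between pools nor errors in how reads were assigned to isoforms. Members were chosen by this contrast, so the intervals of such ratios, here and below, describe the ratio and test nothing. The member of rank 21 had the smallest ratio of highest to lowest mutant library, from 20.7 to 38.1, and the most reads of any member in a control library, 3 reads in control male 2.

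The 10 on transcripts with a read in the controls fell into 2 kinds. In 5 of them the reads were in 1 control library only, with 1 to 3 reads, as for the member of rank 6, which had 2 reads in control female 3 and a mutant to control ratio of 1943 (exact binomial 95% interval 537 to 16049). The other 5, FBtr0100038 among them, had reads in 5 or 6 control libraries. The transcripts of rank 15 and rank 24 shared the same control reads, library by library, 1, 1 and 1 in females and 2, 1 and 1 in males, while their mutant means were 137 and 19.1. For the last of these the ratio was 18.5 (8.68 to 47.2), the smallest among the on transcripts with a read in the controls.

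The 6 transcripts with means under 50 were near the limit of the rule in the mutants. Their lowest mutant libraries were between 11.2 and 20.9 normalized counts, and 3 of them had 10 reads in their lowest mutant library. The more abundant members of rank 7 and rank 18 also came near it, with 19.4 and 17.2 in their lowest mutant libraries. For the transcript of rank 22, without a read in the controls, the fold was at least 9.79. Just inside the limit of 10, the lowest mutant libraries of the 3 nearest members were 11.2, 11.7 and 12.2, and just outside it the nearest known transcripts had 9.72, 8.97 and 8.25. Just inside the limit of 3, the highest control libraries were 2.51 (FBtr0100038), 1.89 and 1.88, and just outside it 3.14, 3.57 and 3.57. A further 21 known transcripts passed the limit in the mutants and had a highest control library of over 3 and at most 6.

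**Figure D2:**
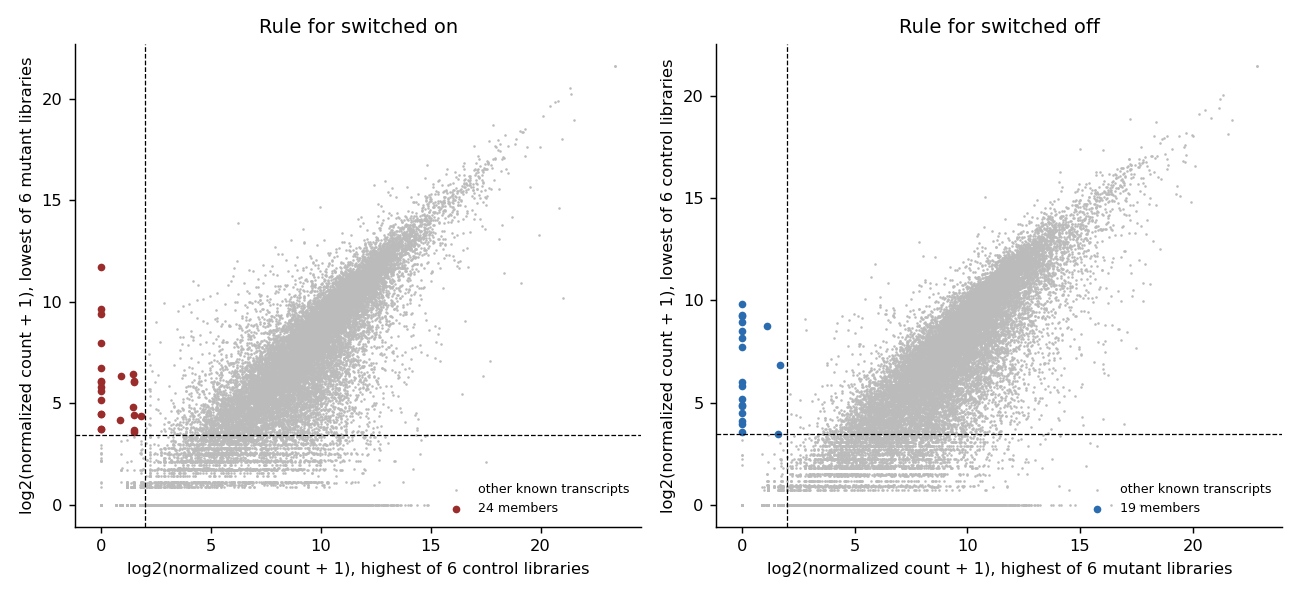
Each point is a known transcript. The horizontal axis is the highest library of the genotype in which a member is absent and the vertical axis the lowest library of the genotype in which it is present, both as log2(normalized count + 1), and the dashed lines are the limits of 3 and 10. The 24 on transcripts (left) and the 19 off transcripts (right) occupy the upper left corner, which is thinly filled on both sides of the limits.

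The off set had a lower maximum and a smaller sum than the on set, but a higher median level. Its mean normalized count over the 6 control libraries ran from 20.3 to 1116, with a median of 283. A mean of at least 100 was found for 11 of the 19, a mean of at least 1000 for 1, and a mean under 50 for 2. In the mutant libraries 16 of the 19 had no read, 3 had a read in at least 1 library and 1 had a read in each of the 6. The set drew 14 reads from the 6 mutant libraries together, at most 2 in a library for any member, and 46782 reads from the 6 control libraries. The most abundant member made 16.3% of the summed mean and the leading 3 made 43.6%.

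FBtr0343384 was the most abundant off transcript. It had 1232.5, 1120.4 and 1116 normalized counts in the control females and 1144, 894 and 1190.5 in the control males, against 0 in each of the 6 mutant libraries. Its control libraries lay within a range of 1.38 times, the narrowest of the off set, and the sexes overlapped. Its level in the mutants was at least 344-fold lower than the control mean of 1116 ± 117 (SD, n = 6), with 3 reads in each mutant library as the limit.

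FBtr0308850 had 1209, 1258 and 1185 normalized counts in the control females and 707, 627 and 650.4 in the control males. It had no read in any mutant library, and was at least 290-fold lower there. Unlike FBtr0343384, its libraries separated by sex, with each female library above each male library. FBtr0308849 and FBtr0308855, singled out after their values were seen because their identifiers differ from that of FBtr0308850 by at most 6 in number, were also off. FBtr0308849 had 759, 368 and 688 in the control females and 604, 584 and 457 in the control males. FBtr0308855 had 307, 249 and 317 in the control females and 403, 209 and 254 in the control males. The sexes overlapped for both, which was not the case for FBtr0308850. No other pair within the on set or within the off set had numbers that differed by 10 or less, and whether these 3 are isoforms of the same gene was not analysed here. If they overlap, they share reads and are not independent measurements.

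The transcripts of rank 3 to 5 had means of 936, 724 and 716 normalized counts in controls. The transcript of rank 3 had 594, 938 and 1029 in the control females and 696, 1007 and 1353 in the control males, the highest value of any off transcript. At rank 5, the transcript had single reads in 3 mutant libraries, and its control to mutant ratio was 1282 (exact binomial 95% interval 438 to 6220). The only off transcript with a read in each mutant library was that of rank 10, with 1, 1 and 2 reads in females and 1 read in each male library, against 113 to 392 normalized counts in the controls. Its ratio was 215 (104.3 to 536). The third member with reads in mutants, of rank 19, had 2 reads in each of 2 male libraries and a ratio of 26.6 (10.1 to 99.0).

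The highest control library was a median of 2.88 times the lowest over the 19 off transcripts, with a range from 1.38 to 13.9 times. The ratio was above 10 for 2 of them. For the transcript of rank 8 the low libraries were the females. For the transcript of rank 11 they were control female 3 at 28.4 and the males at 87.4 to 144, with 329.6 and 252 in the other female libraries. Control male 2, which had the largest size factor, was the lowest control library for 8 of the 19 off transcripts and the highest for none. How often this library was lowest or highest over all known transcripts was not counted, so this is not read as a trait of the off set. The part of this library in the spread was not tested. The lowest control libraries of the members nearest to the limit of 10 were 10.1, 10.7 and 14.3, for the members of rank 19, 18 and 14, and just outside it they were 9.72, 8.10 and 7.15. The highest mutant libraries nearest to the limit of 3 were 2.24, 1.97 and 1.12 inside and 3.34, 3.54 and 4.18 outside.

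The spread between pools of the same group was set beside that of the known transcripts with the members' own minimum, a normalized count of at least 10 in all 6 libraries of the genotype. This choice was made after the data were seen. In the mutant females the median coefficient of variation was 43.4% over the on set and 28.3% over 18174 known transcripts, and in the mutant males 49.6% and 35.0%. For the off set it was 34.4% against 22.7% over 18344 known transcripts in the control females, and 32.3% against 29.6% in the control males. The members' medians were thus above those of the known transcripts in each group. The known transcripts were not matched to the members on level, and its part in the spread was not tested.

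Summed over the set, the on transcripts came to 14846, 13793 and 16191 normalized counts in the mutant females and 12367, 10609.6 and 11346 in the mutant males. Each female library was above each male library, and the female mean was 1.31 times the male mean. Without FBtr0087537, a setting added after the data were seen, the mutant females came to 6994, 8287 and 9123 and the mutant males to 8965, 7274 and 5765. The sexes then overlapped, and the ratio was 1.11. The off transcripts came to 6959, 6702 and 7208 in the control females and 6489, 6162 and 7648 in the control males, with a ratio of 1.03 and overlapping sexes. The reads of the on set were between 0.0104% and 0.0148% of all assigned reads in the mutant libraries. In the control libraries the summed on set was between 4.86 and 7.52, and in the mutant libraries the summed off set was between 1.15 and 3.95.

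**Figure D3:**
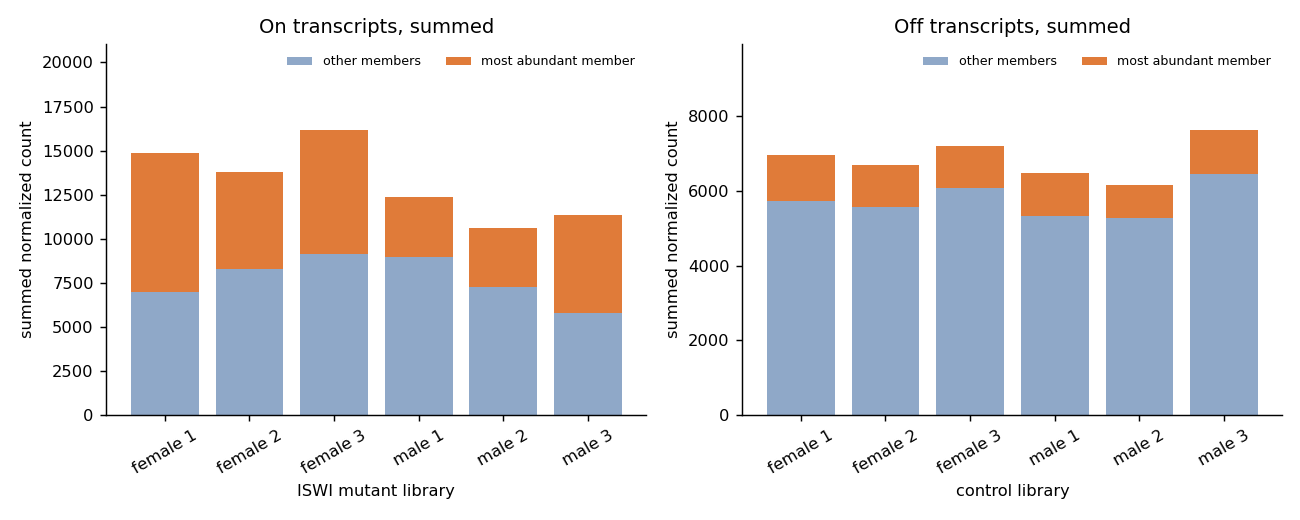
Bars give the summed normalized count of the 24 on transcripts in each mutant library (left) and of the 19 off transcripts in each control library (right), with the most abundant transcript of each set in orange. The female sums of the on set lie above the male sums, the blue parts of the bars overlap between the sexes, and the sums of the off set are even, from 6162 to 7648.

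The difference between the sexes within a genotype was not used by the rule, apart from the limits that every library had to meet, and was tested with limma on log2(normalized count + 1) over 35284 transcripts. The fit used all 12 libraries with a shared estimate of the spread of each transcript. Libraries in which a member was at or near 0 by the rule thus entered its standard error and interval, with little spread of their own. All 43 members entered this test. They passed its filter through the libraries in which they were present. In the mutants 0 of the 24 on transcripts differed between males and females at an adjusted p of 0.05 by limma, where 3.21% of all transcripts tested did. The transcripts tested were not held to the members' minimum in every mutant library, and 24 members are too few to tell 0 from that share. At an unadjusted p of 0.05, 2 of the 24 passed (8.33%, against 12% of all tested). On the same 24 transcripts edgeR called 0, against 0.862% of all tested, and DESeq2 called 1, against 6.86%. The log2 difference, male minus female, ranged from -1.50 to 2.69 with a median of 0.07, against a median of 0.09 over all transcripts tested, and 14 of the 24 were higher in males and 10 in females on this scale. Both directions were thus about equally frequent.

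The intervals of these differences were wide. For none of the 24 did the 95% interval lie within 1 on the log2 scale on either side of 0, and for 10 it lay within 2. A difference of several fold between the sexes can thus not be excluded for most of them with 3 libraries per group. For FBtr0087537 the difference was -0.76 (SE 0.38, 95% interval -1.61 to 0.09, limma adjusted p = 0.496). For FBtr0073565 it was also -0.76 (SE 0.53, interval -1.94 to 0.42, limma adjusted p = 0.667). The larger sum of the on set in females, which rests on FBtr0087537, thus corresponds to a difference that did not pass the test.

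FBtr0081234, of rank 10, was singled out after its values were seen because its difference was the largest of the on set. It had 42.5, 72.3 and 21.3 normalized counts in the mutant females and 218, 169 and 510.3 in the mutant males, and no read in the controls. Each male library was above each female library, and the log2 difference was 2.69 (SE 0.64, 95% interval 1.25 to 4.12), with a limma adjusted p of 0.0548. The call depended on the settings. The adjusted p was 0.0227 with a pseudocount of 5 in limma and 0.0333 with DESeq2. It was 0.0409 in limma when a normalized count of 10 was asked of 6 libraries. With only the mutant groups in the limma fit it was 0.245, and with edgeR 0.278. Over all alternatives it ranged from 0.0227 to 0.278. The eighth transcript had the largest difference in the other direction, with 390.1, 254 and 309.5 in the mutant females and 54.3, 108 and 226 in the mutant males, a log2 difference of -1.50 and a limma adjusted p of 0.346. In all, each male library was above each female library for 2 of the 24 on transcripts, against 9.91% of all transcripts tested, and the reverse held for 2, against 4.48%.

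In the controls 2 of the 19 off transcripts (10.5%) differed between the sexes by limma, against 10% of all transcripts tested. Both were higher in males, as were most of the transcripts called in controls (9.30% of all tested). The share of the members was close to that of all transcripts, which were not held to the members' minimum. FBtr0306236, of rank 8, had 121, 59.0 and 55.9 normalized counts in the control females and 415, 608 and 776 in the control males, without overlap. Its log2 difference was 2.96 (SE 0.54, 95% interval 1.76 to 4.16, limma adjusted p = 0.0042). FBtr0303252, of rank 14, had 20.2, 14.3 and 25.7 in the control females and 135, 61.6 and 100.2 in the control males. Its log2 difference was 2.21 (SE 0.54, 95% interval 1.0 to 3.42, limma adjusted p = 0.0253). Both identifiers are given because these are the only calls, and were chosen after their values were seen. Both transcripts were without a read in the mutants of either sex.

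The call of FBtr0306236 held with any of the 6 control libraries left out, with limma adjusted p-values from 0.0073 to 0.0270. Leaving out a mutant library, where this transcript had no read, could not change its difference. The call also held in the 9 other alternatives, with adjusted p-values from 5.0e-06 with DESeq2 to 0.0397 with edgeR. The call of FBtr0303252 was lost with edgeR (adjusted p = 0.124). It was lost when control female 1, 2 or 3 or control male 1 or 3 was left out (limma adjusted p between 0.0503 and 0.137). Of the control libraries, only control male 2 could be left out without losing it (limma adjusted p = 0.0403). With only the control groups in the fit, the limma adjusted p was 0.0499. The log2 difference of FBtr0303252 stayed between 1.96 and 2.51 with a control library left out. For FBtr0308850, lower in males in all 3 libraries, the log2 difference was -0.88 (SE 0.42, interval -1.82 to 0.06, limma adjusted p = 0.346). It was called when only the control groups were fitted by limma (adjusted p = 0.0071) and by DESeq2 (adjusted p = 1.3e-08), but not by edgeR (adjusted p = 0.184). FBtr0343384 had a difference of -0.11 (SE 0.42, interval -1.05 to 0.82, limma adjusted p = 0.984). Over the 19 transcripts the differences ranged from -0.88 to 2.96 with a median of -0.08, against -0.00 over all tested, and 13 were higher in females and 6 in males. The 95% interval lay within 2 on either side of 0 for 16 of them and within 1 for none. Without overlap, males were above females for 2 (15.7% of all tested) and females above males for 1 (7.48% of all tested).

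**Figure D4:**
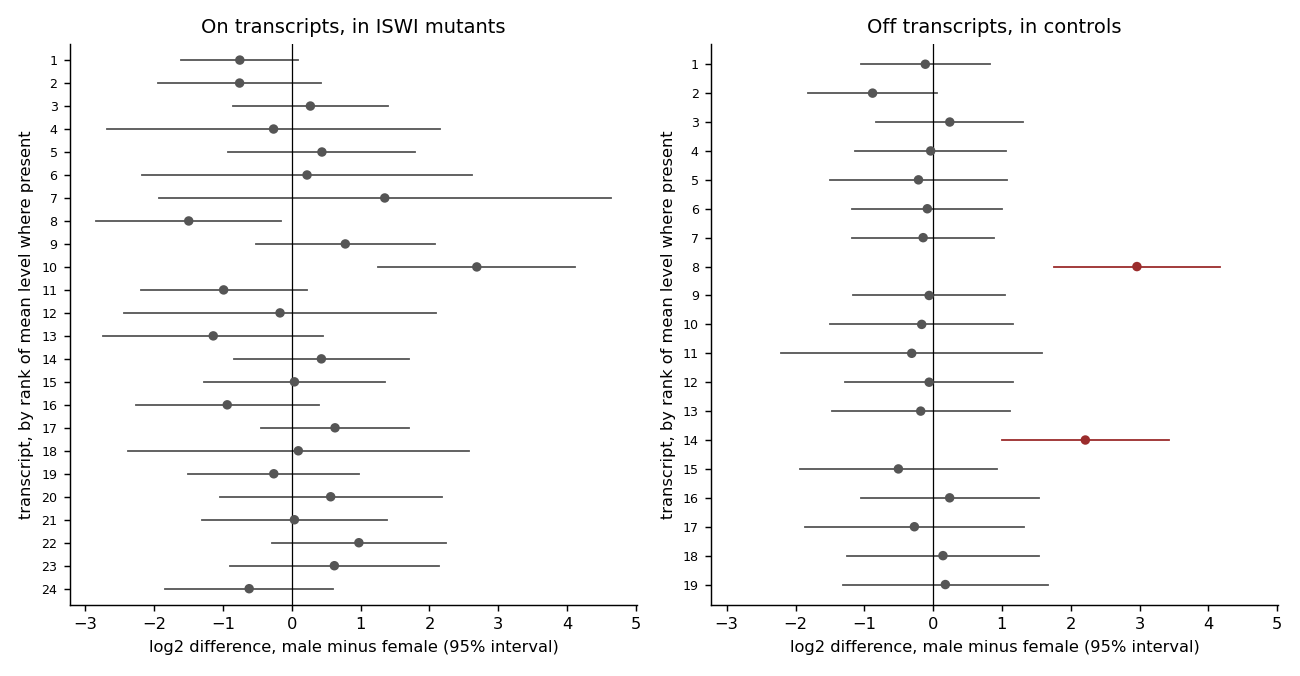
Points give the log2 difference between males and females for each on transcript in the mutants (left) and each off transcript in the controls (right), ranked as before, with 95% intervals from limma as lines. Red marks the 2 off transcripts called at an adjusted p of 0.05, with differences of 2.96 and 2.21, and most other intervals include 0.

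Each sex was also taken alone with the same limits. The rule for on was met by 147 known transcripts in females and by 109 in males. The rule for off was met by 151 and 152. All 24 on and 19 off transcripts are in these lists by construction, so that 123 on transcripts met the rule in females only and 85 in males only. Of the 123, 75 failed in males only because a control male library was above 3, 15 only because a mutant male library was under 10, and 33 on both counts. Of the 85, the corresponding counts in females were 33, 30 and 22. For the off rule, 132 transcripts met it in females only and 133 in males only. Among the 132, 59 failed in males because a mutant male library was above 3, 15 because a control male library was under 10 and 58 on both counts. Among the 133, only 13 failed in females because a mutant female library was above 3, and 95 because a control female library was under 10. Most transcripts that met the off rule in males alone thus had a control female library under 10.

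Among the transcripts that did not meet the rule, 57 for on and 36 for off were kept out by exactly 1 library. Leaving out mutant male 2 raised the off set from 19 to 29, by 10 transcripts that had between 3.34 and 404 normalized counts in that library, with a median of 37.6, and at most 3 in the other 5 mutant libraries. Leaving out control male 3 raised the on set from 24 to 34, by 10 transcripts with between 3.76 and 51.4 in that library. For the on set, 5 of these 10 had at most 10 normalized counts in control male 3, which has the smallest size factor and in which 3 reads make 3.76 normalized counts. For the off set, 2 of the 10 had at most 10 in mutant male 2.

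The same limits were applied to the other rows of the table as a description. Among 5969 transcripts assembled by the authors, 94 (1.57%, Wilson 95% interval 1.29% to 1.92%) met the rule for on and 82 (1.37%, 1.11% to 1.70%) the rule for off. Among 3840 transposable element insertions, 11 (0.286%, 0.160% to 0.512%) met the rule for on and 1 (0.0260%, 0.00460% to 0.147%) that for off. The shares of known transcripts, 0.0767% (0.0516% to 0.114%) and 0.0608% (0.0389% to 0.0949%), were below those of the assembled transcripts in both directions. The classes are not alike: assembled transcripts were built from reads of these libraries, and known ones come from the annotation. The comparison is thus a description of the rule and not a test. The intervals treat rows as independent, which isoforms of a locus and insertions of a family are not.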

How the data were processed

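RNA was measured in 12 libraries of 4 groups of larvae, grouped by the labels. The authors trimmed reads with Trimmomatic (version 0.39), mapped them with HISAT2 (version 2.2.1) to BDGP6, quantified transcripts with StringTie (version 2.1.5) and normalized the counts in DESeq2 (version 1.32.0). The deposited values are a signal, counts divided by a size factor per library. Multiplied by it, 100% of 311529 values of at most 1000 reads were whole within 0.01. They are reads as StringTie assigned them among overlapping isoforms. The binomial intervals treat them as independent counts, and neither intervals nor folds cover errors of that assignment.

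The members and lists were chosen with earlier results of these data known. The rule used values of at most 3 and at least 10. The test between sexes was limma (version 3.58.1, R 4.3.3) on log2(normalized count + 1), with a mean per group, an intensity trend and p-values adjusted by Benjamini-Hochberg over 35284 transcripts (10 or more in at least 3 libraries). edgeR (version 4.0.16) and DESeq2 (version 1.42.0) on the recovered reads were alternatives. On simulated data the intervals covered unchanged transcripts at about the nominal rate and changed ones somewhat less often. There limma missed most changes, so a missed threshold does not show equal levels. No simulated transcript was set to be absent from a whole genotype, as the members are. The coverage therefore need not hold for the members' intervals. Identifiers printed by rule were the leading pair of each set. Gene totals, annotated features, marker lists and sequences were not analysed here.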

Additional observations from a re-analysis of the deposited data

How the results depend on the processing

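The on and off sets held 18 and 15 transcripts with at most 3 against at least 20, 11 and 10 with at most 1 against at least 30, and 39 and 25 with at most 5 against at least 10. Applied to recovered reads the rule gave 25 and 21, after TMM normalization 25 and 20, in females alone 147 and 151, and in males alone 109 and 152. With 1 library left out, the on set held between 25 and 34 and the off set between 19 and 29, the highest without mutant male 2. Of the tests between sexes, the on transcripts called were 1 in place of 0 with a pseudocount of 5 (3.36% of all tested called), with DESeq2 (6.86%) and with 10 in at least 6 libraries (3.29%), and 0 with any library left out. The off transcripts called were 1 in place of 2 with edgeR (6.55% of all tested called). They were 3 with DESeq2 (12.2%) and with only the control groups in the fit (10.3%), where FBtr0308850 was called too. With a library left out they were between 1 and 2 (7.98% to 10.5% of all tested), and 1 where FBtr0303252 lost its call. The log2 difference of FBtr0343384 lay between -0.19 and 0.0146 with a library left out, turning positive without control male 2, and the cause was not tested. Over all transcripts, limma called 1131 between mutant sexes, against 304 with edgeR, 403 with only these groups in the fit and 2419 with DESeq2, and 3527 between control sexes, against 2310 with edgeR, 2256 with 10 in at least 6 libraries and 4301 with DESeq2.

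Same-numbered libraries of the sexes had correlations of their deviations between -0.02 and 0.04. These values gave no reason to pair them by number, but cannot show that same-numbered libraries were prepared apart. A fit with the replicate block called 0 on and 2 off transcripts, as without it. Over all transcripts tested it called 877 (2.49%) between mutant sexes and 3378 (9.57%) between control sexes. Control female 1 and control female 2 correlated best with the control male library of their own number, and the other female libraries did not.

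Depth limits the low end: the members under 50 normalized counts rest on 10 to 21 reads in their lowest library, and 1 read decides whether a transcript passes the limit of 3.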
